A study of Homo sapiens with 6 samples.

Results

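Hypoxia-inducible factor (HIF) pathway genes and HIF targets were followed at the transcript level in cells of the AGS line, which was established from a human gastric adenocarcinoma. The set comprised 10 genes of the 18597 in the expression tables, found by their NCBI Gene IDs. They were the HIF subunits HIF1A, EPAS1 and ARNT, the prolyl hydroxylases EGLN1 and EGLN3, and the non-glycolytic targets ANKRD37, NDRG1, CA9, VEGFA and BNIP3. Cells had received a control small interfering RNA (siControl, 3 libraries) or one directed at DUB1 (siDUB1, 3 libraries); a small interfering RNA leads to degradation of its matching transcript. The labels name no oxygen treatment for either group, and no time after transfection. Expression was in FPKM, fragments per kilobase of transcript and per mapped fragments of the library, so levels of different genes can be compared per length; values are given in the order of replicates 1, 2 and 3. Sequencing depth is unknown from these values. The labels do not say whether replicates were separate cultures, and the p-values therefore reflect the spread among these libraries alone, which may be technical.

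HIF is a heterodimer of an oxygen-regulated alpha subunit (HIF1A or EPAS1, the latter also called HIF-2 alpha) and the constitutive beta subunit ARNT. When oxygen is present, prolyl hydroxylases of the EGLN family mark the alpha subunit, the VHL ubiquitin ligase binds it and the proteasome degrades it. When oxygen is short the alpha protein persists, pairs with ARNT and binds hypoxia response elements near its target genes, whose transcripts then accumulate. HIF activity is therefore set largely at the level of protein, which was not measured here. In many solid tumours CA9 and VEGFA are used as markers of hypoxia, and EGLN3 is itself a HIF target in a feedback loop.

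The short core of a hypoxia response element reads ACGTG or GCGTG on either strand. Promoter windows from RefSeq (GRCh38.p14, from 250 bases before to 50 after the annotated start) were used for 8 of the 10 genes, without VEGFA and NDRG1. The 250 bases before the start are printed for 4 genes that contrast in their values below: ANKRD37 (chr4:185396591-185396840, plus strand) and CA9 (chr9:35673678-35673927, plus strand), which were higher in siDUB1 libraries, EGLN1 (chr1:231422288-231422537, minus strand), whose groups overlapped, and BNIP3 (chr10:131981924-131982173, minus strand), which was near 0. Each reads 5′ to 3′ on the strand of the gene, with the cores in capitals; a core on the opposite strand appears as its reverse complement, CACGT or CACGC.
ANKRD37: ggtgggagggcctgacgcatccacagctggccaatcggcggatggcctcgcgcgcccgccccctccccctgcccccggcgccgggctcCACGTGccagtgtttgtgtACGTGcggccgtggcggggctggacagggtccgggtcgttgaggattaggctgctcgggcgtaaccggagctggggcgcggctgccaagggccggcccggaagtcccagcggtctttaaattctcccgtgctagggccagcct
CA9: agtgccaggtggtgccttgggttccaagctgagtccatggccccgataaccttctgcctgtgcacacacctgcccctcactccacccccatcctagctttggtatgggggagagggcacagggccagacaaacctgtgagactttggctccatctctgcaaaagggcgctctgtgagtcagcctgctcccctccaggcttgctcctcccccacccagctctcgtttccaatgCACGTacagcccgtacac
EGLN1: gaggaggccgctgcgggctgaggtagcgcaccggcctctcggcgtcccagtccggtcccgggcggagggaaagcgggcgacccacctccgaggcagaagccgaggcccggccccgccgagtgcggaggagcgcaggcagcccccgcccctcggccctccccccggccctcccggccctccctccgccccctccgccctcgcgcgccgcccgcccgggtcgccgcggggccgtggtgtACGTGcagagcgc
BNIP3: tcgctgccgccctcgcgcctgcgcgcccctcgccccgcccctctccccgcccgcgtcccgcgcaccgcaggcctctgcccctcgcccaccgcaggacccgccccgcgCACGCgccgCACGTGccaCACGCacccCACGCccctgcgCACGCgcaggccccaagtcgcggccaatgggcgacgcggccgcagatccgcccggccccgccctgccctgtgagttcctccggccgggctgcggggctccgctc

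ANKRD37 held 3 cores, all ACGTG, of which 2 overlap as the palindrome CACGTG and the other spans positions -143 to -139 from the start. In CA9 the single ACGTG lay on the opposite strand at positions -18 to -14. EGLN1 held 1 ACGTG at positions -13 to -9. BNIP3 held 6 cores between positions -143 and -100, 2 ACGTG in another CACGTG palindrome and 4 GCGTG on the opposite strand. HIF1A and EPAS1 held 1 GCGTG each, and ARNT and EGLN3 held none of these letters in their windows. At least 1 core was present in 6 of the 8 windows (75.0%), beside 48.4% of all 27305 promoters and 64.0% of the 9064 promoters of genes tested below. At least 3 cores were present in ANKRD37 and BNIP3, beside 16.3% of promoters of tested genes. With the longer cores ACGTGC and GCGTGC the counts were 5 of 8 windows and 18.8% of all promoters, or 27.9% of those of genes tested. Such matches describe sequence only; binding was not measured.

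One library stood apart. In siDUB1 replicate 3 the median FPKM over all genes was 1.75, where the other 5 libraries had 2.91 to 3.07. Its log2 values correlated with those of siDUB1 replicates 1 and 2 at r = 0.964 and 0.960 over 10994 genes, against 0.997 to 0.998 for other pairs within a group. Its deviation from replicates 1 and 2 followed transcript GC content, from a median of -0.86 (log2) in the lowest of 10 equal groups of genes by GC to 0.40 in the highest group. The results for the 9 tested genes of the set are therefore given with and without that library, and a correction of each library for transcript GC content and length was also run. USP36, for which DUB1 is a synonym in the RefSeq gene table, was at 9.16, 6.74 and 7.25 FPKM across the siControl libraries and 4.11, 4.75 and 2.59 FPKM across the siDUB1 libraries, a fall of -0.87 (log2, limma adjusted p = 0.0432; -0.68 and adjusted p = 1.97e-04 without siDUB1 replicate 3) that lost its call in 9 of 18 alternative settings. Epithelial markers (KRT8, KRT18, KRT19, EPCAM and CLDN4) summed to between 7233 and 7686 FPKM in siControl and between 5978 and 8622 in siDUB1 libraries. With all 6 libraries none of these 5 was called by limma and 0 had an unadjusted p under 0.05 (median -0.15). However, KRT8, KRT18, KRT19 and EPCAM were called lower without siDUB1 replicate 3 (median -0.26), and 3 of them with quantile normalization. Without that library 25.6% of all genes tested were called lower. Of 5 leukocyte markers, 4 were under 0.5 FPKM in all libraries while CD68, which epithelial lines can also express, rose from a mean of 7.38 to 17.8 FPKM (limma adjusted p = 0.0043); the list summed to between 7.19 and 8.62 FPKM in siControl and between 17.1 and 19.9 in siDUB1 libraries. Of 5 fibroblast markers, 4 were likewise under 0.5 FPKM, and COL1A1 fell from a mean of 19.1 to 9.60 FPKM (adjusted p = 0.0101). The 4 endothelial markers summed to at most 0.80 FPKM. The part of CD68 and COL1A1 in the results was not tested, and in bulk RNA fewer cells of a type cannot be told apart from less RNA per cell.

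Of the 10 genes, 3 rose in siDUB1 libraries and none fell. ANKRD37, NDRG1 and CA9 passed the test, HIF1A, EPAS1, ARNT, EGLN1, EGLN3 and VEGFA did not, and BNIP3 lay under the filter on low values and was not tested. At an unadjusted p under 0.05, 4 were higher (VEGFA in addition) and 0 lower. The share of all genes at that unadjusted threshold is not given here, so these counts have no background. The test was limma on log2(FPKM + 1), two-sided, with p adjusted by Benjamini-Hochberg over the 10994 genes with at least 1 FPKM in at least 3 libraries and a threshold of 0.05. Over all those genes 8.13% were called higher and 5.92% lower. Without siDUB1 replicate 3 the calls became 6 higher (ARNT, EGLN1, ANKRD37, NDRG1, CA9 and VEGFA) and 2 lower (HIF1A and EPAS1), but then 31.7% of all genes tested were called higher and 25.6% lower. Corrected for GC and length and without that library, the same 8 genes were called, beside 30.3% and 28.1% of all genes; with the correction and all 6 libraries the same 3 rose and none fell, beside 17.0% and 14.9%.

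**Figure D1:**
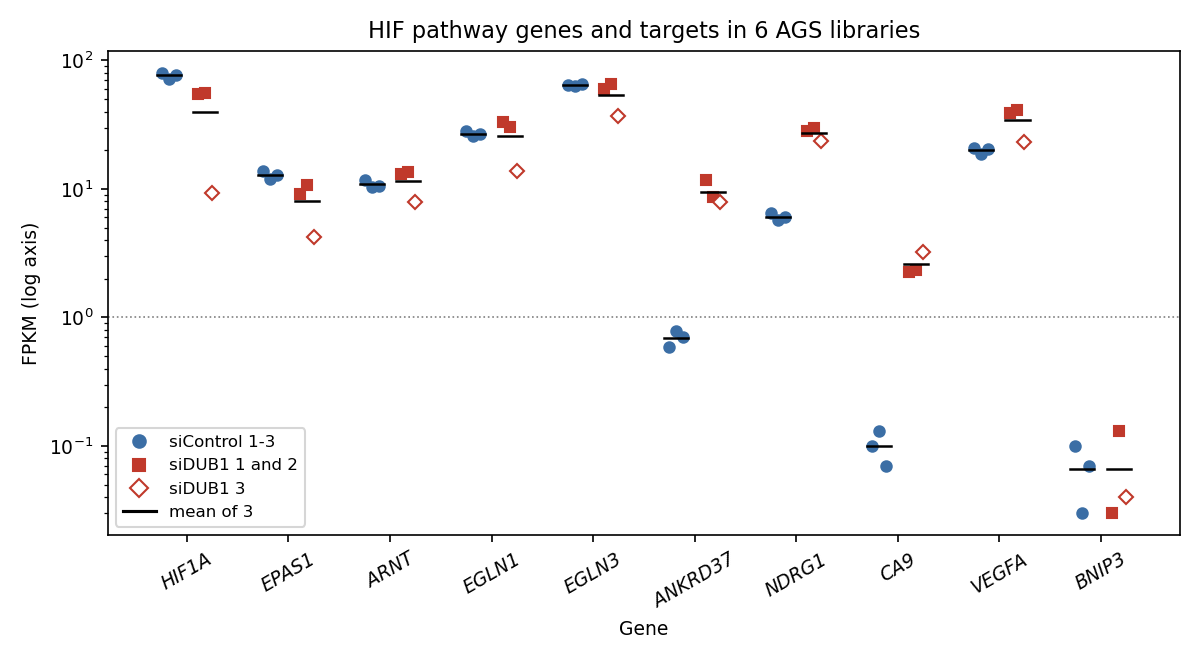
FPKM (log axis) of the 10 genes in the 3 siControl libraries (circles), siDUB1 replicates 1 and 2 (squares) and siDUB1 replicate 3 (open diamonds); bars are means of 3 libraries and the dotted line marks the filter at 1 FPKM. ANKRD37 and CA9 lie under the line in all siControl libraries and above it in all siDUB1 libraries, NDRG1 is higher in each siDUB1 library, and the diamond is the lowest siDUB1 point for all genes but CA9 and BNIP3.

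In siControl libraries the most abundant of the 10 transcripts was HIF1A, at a mean of 76.3 FPKM, followed by EGLN3 at 64.6, EGLN1 at 26.97, VEGFA at 19.99, EPAS1 at 12.8, ARNT at 10.9 and NDRG1 at 6.08 FPKM. ANKRD37 (0.69 FPKM), CA9 (0.10 FPKM) and BNIP3 (0.067 FPKM) were near 0. The ranges of neighbours in that order did not overlap, except those of CA9 and BNIP3. In siDUB1 libraries the order of means was EGLN3 (54.1 FPKM), HIF1A (39.7), VEGFA (34.4), NDRG1 (27.2), EGLN1 (25.7), ARNT (11.4), ANKRD37 (9.45), EPAS1 (8.003), CA9 (2.60) and BNIP3 (0.067). There the ranges of neighbours overlapped, except between EGLN1 and ARNT, EPAS1 and CA9, and CA9 and BNIP3; NDRG1 moved from below EPAS1 and ARNT to above EGLN1 in mean level.

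HIF1A (Gene ID 3091, chr14:61695513-61748258 in GRCh38.p14), the widely expressed alpha subunit, was at 80.07, 71.43 and 77.36 FPKM across the siControl libraries and 54.31, 55.70 and 9.23 FPKM across the siDUB1 libraries. Every siDUB1 library was below every siControl library, and replicate 3 was far below the other two. The means were 76.3 ± 4.42 and 39.7 ± 26.4 FPKM (SD, n = 3 each). The difference was -1.28 on the log2 scale (SE 0.65, 95% interval -2.84 to 0.28) and did not pass the test (limma adjusted p = 0.211). Without siDUB1 replicate 3 it was -0.46 and passed (limma adjusted p = 2.13e-05), and with the correction as well it was -0.28 (adjusted p = 2.26e-04). HIF1A transcripts are 37.3% GC, in the lowest GC group, and the deviation of replicate 3 from its fellow libraries was -2.45, the lowest of the 1091 genes in that group, whose median was -0.86. Antisense genes overlap this locus and a processed copy, HIF1AP1, exists, so the value may include reads of others; whether strand was used in counting is unknown here.

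EPAS1 (Gene ID 2034, chr2:46297407-46386697), the alpha subunit best known from endothelium and from renal cancer, was lower than HIF1A in level and had the same order of groups. It was at 13.67, 11.92 and 12.78 FPKM across the siControl libraries and 9.13, 10.67 and 4.21 FPKM across the siDUB1 libraries. The groups did not overlap, and replicate 3 was again the lowest. The difference of -0.69 (log2, SE 0.30, 95% interval -1.42 to 0.03) did not pass (limma adjusted p = 0.162), while without siDUB1 replicate 3 it was -0.34 and passed (adjusted p = 0.00282). Among the 1091 genes of its GC group, 24 deviated further down in replicate 3. Groups that do not overlap, with siDUB1 below, were found for 28.5% of all genes tested.

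ARNT (Gene ID 405, chr1:150809713-150876599), the beta subunit, was at 11.67, 10.42 and 10.61 FPKM across the siControl libraries and 12.95, 13.52 and 7.87 FPKM across the siDUB1 libraries. Replicates 1 and 2 of siDUB1 were above and replicate 3 below all siControl libraries. Its difference was 0.03 (log2, 95% interval -0.47 to 0.53, limma adjusted p = 0.921), and 0.26 without siDUB1 replicate 3 (adjusted p = 0.00612). The less abundant subunits HIF3A and ARNT2 lay under the filter, at means of 0.620 and 0.0633 FPKM in siControl libraries and 0.413 and 0.0333 in siDUB1 libraries.

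The ratio of EPAS1 to HIF1A within a library is free of library scaling, but not of the GC trend in siDUB1 replicate 3. There the median deviation was -0.86 in the GC group of HIF1A and 0.04 in that of EPAS1. The ratio was 0.171, 0.167 and 0.165 in the siControl libraries and 0.168, 0.192 and 0.456 in the siDUB1 libraries. The groups overlapped, with replicate 3 highest. On the log2 scale the difference was 0.55 (exact permutation test, two-sided, p = 0.2, adjusted p = 0.4 over 2 ratios), where 3 against 3 cannot go below 0.1. Without siDUB1 replicate 3 it was 0.10 (exact p = 0.4), where 3 against 2 cannot go below 0.2. The ratio of siDUB1 replicate 1 lay inside the siControl range.

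**Figure D2:**
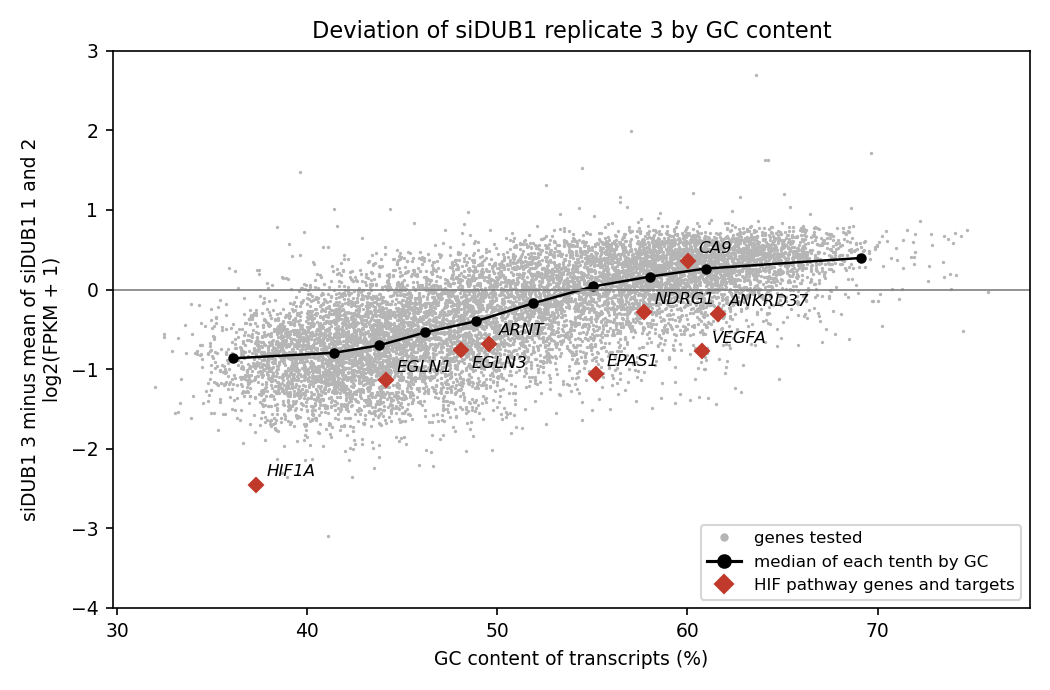
Deviation of siDUB1 replicate 3 from the mean of siDUB1 replicates 1 and 2 (log2(FPKM + 1)) against transcript GC content (%) for genes tested (grey), the median of each of 10 groups of genes by GC (black line) and 9 of the 10 genes described (red diamonds). The medians run from -0.86 to 0.40, HIF1A lies at -2.45 and CA9, at 0.36, is the only diamond above 0.

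EGLN1 (Gene ID 54583, chr1:231363756-231422287), the main oxygen sensor of the family (PHD2), was at 28.19, 25.89 and 26.84 FPKM across the siControl libraries and 32.87, 30.33 and 13.78 FPKM across the siDUB1 libraries. As for ARNT, replicates 1 and 2 were above all siControl libraries and replicate 3 below them. The difference was -0.16 (log2, 95% interval -0.91 to 0.59, limma adjusted p = 0.73). It turned to 0.22 without siDUB1 replicate 3 (adjusted p = 0.00665) and was 0.25 with all 6 libraries after the GC and length correction (adjusted p = 0.0951).

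EGLN3 (Gene ID 112399, chr14:33924227-33951074), a hydroxylase strongly induced by hypoxia in many lines (PHD3), was the more abundant of the pair. Its values were 64.61, 63.40 and 65.76 FPKM across the siControl libraries and 60.40, 65.06 and 36.74 FPKM across the siDUB1 libraries. The groups overlapped, with replicate 2 of siDUB1 inside the siControl range. The difference was -0.29 (log2, 95% interval -0.80 to 0.22, limma adjusted p = 0.348), and -0.04 (95% interval -0.15 to 0.07, adjusted p = 0.498) without siDUB1 replicate 3. It passed in none of the 18 alternative settings run. EGLN3 to EGLN1 ratios were 2.29, 2.45 and 2.45 in the siControl libraries and 1.84, 2.15 and 2.67 in the siDUB1 libraries, a difference of -0.13 on the log2 scale (exact permutation test, two-sided, p = 0.6, adjusted p = 0.6). Replicates 1 and 2 of siDUB1 were below and replicate 3 above all siControl ratios. Without replicate 3 the difference was -0.27 (exact p = 0.2, the smallest that 3 against 2 libraries can give). In replicate 3 the median deviation was -0.40 in the GC group of EGLN3 and -0.70 in that of EGLN1.

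None of the listed HIF hydroxylases and ubiquitin ligase components passed in limma's test with all 6 libraries and FPKM as deposited. At an unadjusted limma p under 0.05, HIF1AN was lower and SIAH2 and ELOB were higher. The hydroxylase list (EGLN1, EGLN2, EGLN3, HIF1AN and P4HTM) had 0 of 5 members called and a median difference of -0.16, beside -0.06 over all genes tested. HIF1AN, the asparaginyl hydroxylase that blocks coactivator binding, was at means of 10.3 and 7.62 FPKM in siControl and siDUB1 libraries (-0.40, limma adjusted p = 0.11; -0.28 without siDUB1 replicate 3), and EGLN2 at 76.6 and 88.7 FPKM (0.20, adjusted p = 0.31). With the GC and length correction HIF1AN was at -0.11 with all 6 libraries (limma adjusted p = 0.416). It was at -0.20 with the correction and without siDUB1 replicate 3 (adjusted p = 0.0111). The list of ubiquitin ligase components (VHL, ELOB, ELOC, CUL2, RBX1, SIAH1 and SIAH2) had 0 of 7 called and a median of 0.10. For both lists the share over all genes tested was 8.13% higher and 5.92% lower. The smallest p-values of the ligase components were those of SIAH2, a ligase acting on prolyl hydroxylases (means of 15.6 and 23.6 FPKM, 0.55, adjusted p = 0.0781, passing with size factors at 0.0233 and with quantile normalization at 0.0173), and of ELOB, an adaptor bound to VHL (247 and 376 FPKM, 0.57, adjusted p = 0.124). Without siDUB1 replicate 3, EGLN1, ELOB, RBX1 and SIAH2 were called higher and HIF1AN lower, beside 31.7% and 25.6% of all genes tested. The list medians were then 0.06 (hydroxylases) and 0.08 (ligase components).

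Among 6 cofactors of HIF (EP300, CREBBP, NCOA1, CITED2, CITED4 and SENP1), CITED2 fell and the other 5 did not pass. The median was -0.49, beside -0.06 over all genes tested, of which 5.92% were called lower. CREBBP had an unadjusted p under 0.05 as well (-0.73, limma adjusted p = 0.113) and was called lower under quantile normalization or after correction for GC and length. Without siDUB1 replicate 3 the median was -0.20, and CREBBP (-0.43) and SENP1 (-0.26) were called lower beside CITED2. In that fit 25.6% of all genes tested were called lower. CITED2, which competes with HIF alpha subunits for the coactivators EP300 and CREBBP and is itself known as a HIF target, was at 38.11, 34.99 and 35.38 FPKM across the siControl libraries and 13.20, 12.52 and 4.99 FPKM across the siDUB1 libraries. All siDUB1 libraries were well below all siControl libraries. The difference was -1.83 (log2, SE 0.33, limma adjusted p = 0.0199), and -1.42 without siDUB1 replicate 3 (adjusted p = 2.52e-09). The call was lost when any 1 siControl library was left out (adjusted p up to 0.107).

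ANKRD37 (Gene ID 353322, chr4:185396841-185400723) encodes a small ankyrin repeat protein and is a HIF1A target in many cell types. Its FPKM was 0.59, 0.78 and 0.70 across the siControl libraries and 11.68, 8.72 and 7.96 across the siDUB1 libraries. All siDUB1 libraries were far above all siControl libraries. Means were 0.69 ± 0.0954 and 9.45 ± 1.97 FPKM (SD, n = 3 each), a ratio of 13.7 and, without siDUB1 replicate 3, of 14.8. On the log2(FPKM + 1) scale, which understates the change of low genes, the difference was 2.61 (SE 0.16, 95% interval 2.23 to 2.998, limma adjusted p = 0.00159), ranked 1 from the top of the 10994 genes in the fit of all 6 libraries. It was 2.72 without siDUB1 replicate 3 and passed in all 18 alternative settings run, between 2.37 and 3.75 on the log2 scale with adjusted p up to 0.0268.

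Genes overlapping ANKRD37 differed by far less. LRP2BP, which overlaps its start, was between 0.23 and 0.30 FPKM in all 6 libraries. UFSP2, which overlaps its end, was at 5.75, 5.78 and 6.41 FPKM across the siControl libraries and 6.58, 7.49 and 6.09 FPKM across the siDUB1 libraries (0.14, limma adjusted p = 0.435; 0.20 and adjusted p = 0.0482 without siDUB1 replicate 3). The promoter printed above holds 3 cores for this gene, and that of BNIP3, which was near 0 in both groups, holds 6. Whether the cores have a part in these values was not tested.

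NDRG1 (Gene ID 10397, chr8:133237175-133297252), a stress-responsive gene linked to differentiation and growth arrest and induced by hypoxia in many epithelial lines, was at 6.48, 5.74 and 6.03 FPKM across the siControl libraries and 28.17, 29.75 and 23.58 FPKM across the siDUB1 libraries. The groups were widely apart, and each varied little within itself. Means were 6.08 ± 0.373 and 27.2 ± 3.21 FPKM (SD, n = 3 each), a ratio of 4.47. The rise was 1.99 (log2, SE 0.13, 95% interval 1.68 to 2.29, limma adjusted p = 0.00159), 2.08 without siDUB1 replicate 3, and passed in all 18 alternative settings run, between 1.79 and 2.15. Of its 3 paralogues, NDRG2, known as a growth-suppressing relative, fell from a mean of 17.8 to 10.9 FPKM (-0.66, limma adjusted p = 0.0153, a call lost in 6 settings, among them each that left out a siControl library), while NDRG3 (0.14) and NDRG4 (-0.16) did not pass; without siDUB1 replicate 3 NDRG3 did (0.19).

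CA9 (Gene ID 768, chr9:35673928-35681159), a membrane carbonic anhydrase, was at 0.10, 0.13 and 0.07 FPKM across the siControl libraries and 2.24, 2.35 and 3.22 FPKM across the siDUB1 libraries. It was the only gene of the 10, apart from the near-absent BNIP3, that siDUB1 replicate 3 did not place lowest among siDUB1 libraries. The mean FPKM ratio was 26.0, but it rests on siControl values near the 2 decimals of the files and is correspondingly imprecise. The rise was 1.70 (log2, SE 0.12, 95% interval 1.40 to 2.002, limma adjusted p = 0.00197), 1.58 without siDUB1 replicate 3 (adjusted p = 5.31e-08), and passed in all 17 alternative settings in which the gene was tested. ANKRD37 and CA9 reached 1 FPKM in siDUB1 libraries only, so that passing the filter already required a difference. With no filter on low values both still passed (adjusted p = 0.00304 each), where 4.47% of 17900 genes were called higher and 3.37% lower. With no filter and without siDUB1 replicate 3 the calls were again 6 higher and 2 lower among the 10 genes, beside 17.2% and 14.1% of all genes.

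VEGFA (Gene ID 7422, chr6:43770211-43786487), the main angiogenic growth factor, was at 20.62, 18.79 and 20.57 FPKM across the siControl libraries and 39.06, 41.15 and 23.03 FPKM across the siDUB1 libraries. All siDUB1 libraries were above all siControl libraries, replicate 3 by little. Means were 19.99 ± 1.04 and 34.4 ± 9.91 FPKM (SD, n = 3 each), a ratio of 1.72 and, without siDUB1 replicate 3, of 2.01. The difference of 0.71 (log2, SE 0.22, 95% interval 0.18 to 1.24) did not pass (limma adjusted p = 0.079), while without siDUB1 replicate 3 it was 0.97 and passed (adjusted p = 7.18e-08). It also passed with size factors and with quantile normalization, where 661 and 1364 of the 10994 genes were called higher. Without that library it passed with the correction too (0.85, limma adjusted p = 3.65e-06), beside 30.3% of all genes called higher. With the correction and all 6 libraries it was 0.49 (95% interval -0.19 to 1.17) and did not pass (adjusted p = 0.225). It passed in 5 of 18 settings in all, among them each without siDUB1 replicate 3. Only 18 of the 1091 genes in its GC group deviated further down in replicate 3, so for VEGFA as for HIF1A and EPAS1 that library was lower than others of like GC. Groups that do not overlap, with siDUB1 above, were found for 24.8% of all genes tested.

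Most other ligands and receptors of the VEGF family were low in these cells. Of 9 genes listed, VEGFA included, 4 were tested, of which PGF, a placental ligand of the family, rose from a mean of 0.81 to 1.48 FPKM (0.45, limma adjusted p = 0.0445) and NRP1, a coreceptor, fell from 9.58 to 5.87 FPKM (-0.62, adjusted p = 0.0217). Both calls were lost in several settings, GC and length correction and each left-out siControl library among them. PGF reached 1 FPKM in siDUB1 libraries only, so that the filter already required a difference, and with no filter its call was lost (adjusted p = 0.0572). Without siDUB1 replicate 3 PGF (0.39) and NRP1 (-0.66) were called, and VEGFB too (0.24, adjusted p = 0.00342). In that fit 31.7% of all genes tested were called higher and 25.6% lower. VEGFB was at means of 37.7 and 53.1 FPKM (0.45, adjusted p = 0.148). The receptors KDR and FLT1 were at or under a mean of 0.107 FPKM in both groups.

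BNIP3 (Gene ID 664, chr10:131967684-131981923), a mitophagy receptor strongly induced by HIF in many cells, was listed at 0.10, 0.03 and 0.07 FPKM across the siControl libraries and 0.03, 0.13 and 0.04 FPKM across the siDUB1 libraries. These are among the lowest values above 0 in the files, and the groups overlapped. With no filter the difference was -0.00074 (log2, 95% interval -0.10 to 0.10, limma adjusted p = 1). The RefSeq table lists 46 pseudogenes under this symbol, so reads could be split between copies and the level is uncertain. PPP2R2D, which overlaps its end, was between 14.6 and 17.9 FPKM. Its paralogue BNIP3L, named after its values were seen, was at 8.15, 7.91 and 8.24 FPKM across the siControl libraries and 15.07, 16.57 and 10.21 FPKM across the siDUB1 libraries, a difference of 0.69 that did not pass (limma adjusted p = 0.0556) and that was 0.88 and passed without siDUB1 replicate 3 (adjusted p = 4.46e-07).

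**Figure D3:**
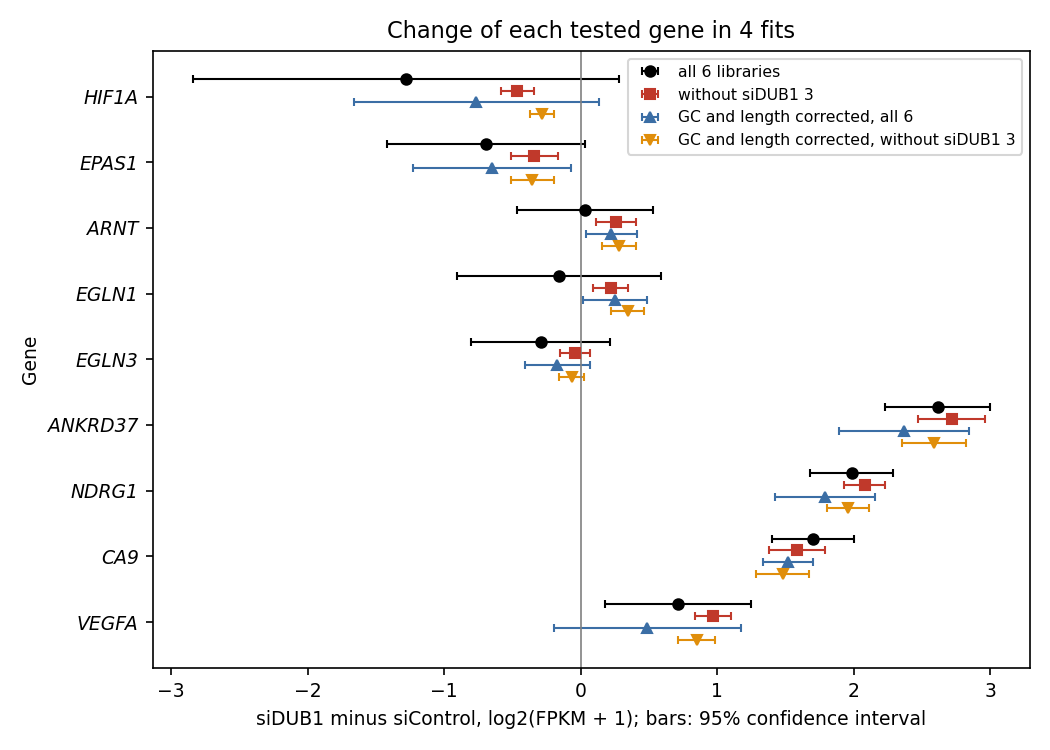
Difference between siDUB1 and siControl (log2(FPKM + 1), bars are 95% confidence intervals) for the 9 genes tested, from all 6 libraries, without siDUB1 replicate 3, and each with a correction for GC content and length. ANKRD37, NDRG1 and CA9 stay above 1 in all 4 fits, the interval of HIF1A from all 6 libraries runs from -2.84 to 0.28, and EGLN1 lies at -0.16 with all libraries and at 0.22 without siDUB1 replicate 3.

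The wider set of non-glycolytic hypoxia targets moved both ways. Of 53 listed genes, 51 were in the tables used here and 36 were tested, of which 9 rose, 3 fell and 24 did not pass; their median difference was 0.02, beside -0.06 over all genes tested, of which 8.13% were called higher and 5.92% lower. The groups did not overlap for 13 of the 36 with siDUB1 above (36.1%) and for 9 of the 36 with siDUB1 below, beside 24.8% and 28.5% of all genes tested. ANKRD37, CA9 and SPAG4, all called higher, reached 1 FPKM in siDUB1 libraries only. For these, being among the 36 already required a difference, which raises the counts with siDUB1 above. Without siDUB1 replicate 3, 19 were called higher and 6 lower, with a median of 0.21 beside 0.02, where 31.7% of all genes tested were called higher and 25.6% lower. When any 1 siControl library was left out, 3 rose (ANKRD37, CA9 and NDRG1) and 2 fell (EDN1 and PDGFB). In those fits 54 to 67 of the 10994 genes tested were called higher and 71 to 80 lower. With no filter on low values and all 6 libraries, 10 of the 51 were called higher and 3 lower. The shares over all 17900 genes were then 4.47% and 3.37%, and the median was -0.01 for the 51 and for all genes.

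Among the secreted and vascular targets 2 of 4 tested fell with all 6 libraries, beside 5.92% of all genes tested. They lay on the opposite side from VEGFA and ANGPTL4, a lipase inhibitor (0.59, limma adjusted p = 0.0625). VEGFA was called higher under both other scalings, ANGPTL4 without siDUB1 replicate 1, and both without siDUB1 replicate 3. In the last of these fits 31.7% of all genes tested were called higher. EDN1, a vasoconstrictor peptide, was at 46.01, 46.89 and 46.11 FPKM across the siControl libraries and 9.79, 11.33 and 6.80 FPKM across the siDUB1 libraries (-2.23, limma adjusted p = 0.00206). PDGFB, a growth factor for pericytes, fell from a mean of 22.1 to 8.17 FPKM (-1.34, limma adjusted p = 0.00329). Both genes passed in all 18 alternatives run. They are known targets of other pathways as well as of HIF.

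Of 6 tested genes that act in mitochondria or mitophagy, 2 rose and 1 fell. For this and the next counts from all 6 libraries, the share over all genes tested was 8.13% higher and 5.92% lower. LONP1, the matrix protease, rose from a mean of 33.2 to 59.0 FPKM (0.81, limma adjusted p = 0.0104), and FAM162A, a HIF-induced mitochondrial protein, from 19.5 to 30.5 FPKM (0.62, adjusted p = 0.0107). HIGD1A, a respiratory chain assembly factor, fell from 101 to 36.4 FPKM (-1.49, adjusted p = 0.0125). Elsewhere PLOD1, a collagen lysyl hydroxylase, rose from 66.6 to 102 FPKM (0.60, adjusted p = 0.0284) and was the only call of 4 collagen and oxidative folding genes. None of 7 chromatin and transcription targets was called by limma, and 0 had an unadjusted p under 0.05. ZNF395 (-0.36, adjusted p = 0.266) and KDM4B (-0.14, adjusted p = 0.344) had the smallest p-values. KDM3A, KDM5B and MXI1 were called higher without siDUB1 replicate 3, where 31.7% of all genes tested were called higher. Among the remaining 12 targets, 5 rose and none fell: ANKRD37, NDRG1, ANKZF1, a ribosome quality control factor that rose from 10.1 to 22.0 FPKM (1.04, adjusted p = 0.00928), HILPDA, a lipid droplet protein (5.66 to 9.80 FPKM, 0.70, adjusted p = 0.0176), and SPAG4 (0.73 to 1.51 FPKM, 0.54, adjusted p = 0.0206), which like ANKRD37 and CA9 reached 1 FPKM in siDUB1 libraries only. LONP1, FAM162A, HIGD1A, PLOD1, ANKZF1, HILPDA and SPAG4 each lost their call when any 1 siControl library was left out.

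**Figure D4:**
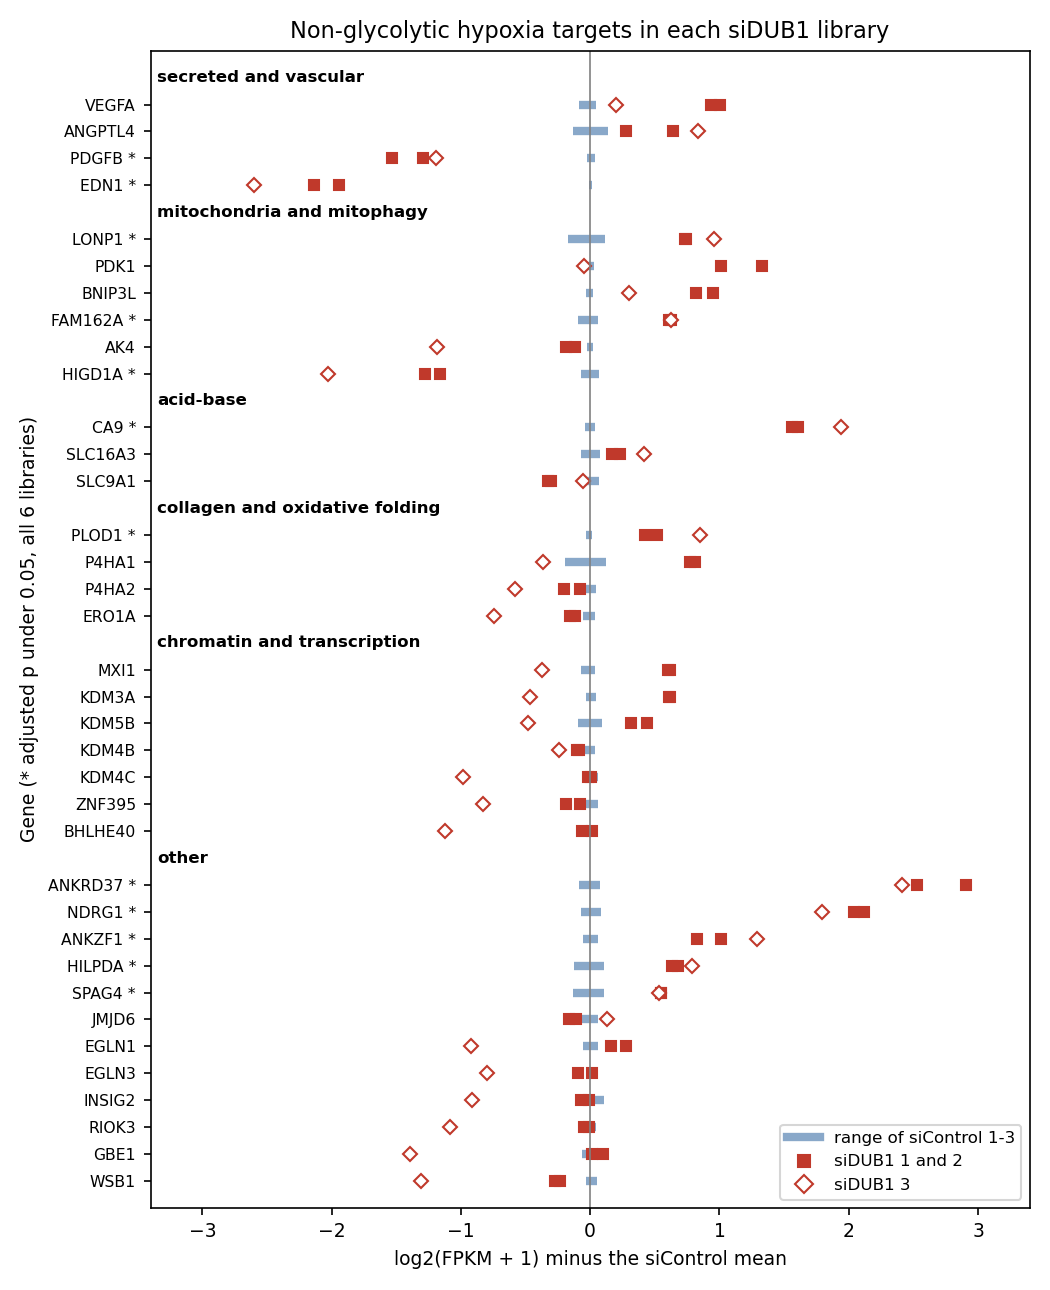
Each siDUB1 library minus the siControl mean (log2(FPKM + 1)) for the 36 tested non-glycolytic hypoxia targets, by role; squares are siDUB1 replicates 1 and 2, open diamonds replicate 3, blue bars the siControl range and asterisks mark an adjusted p under 0.05 with all 6 libraries. ANKRD37, NDRG1 and CA9 lie furthest right and EDN1, HIGD1A and PDGFB furthest left, while for MXI1, KDM3A, KDM5B, P4HA1 and EGLN1 the diamond lies on the other side of 0 from both squares.

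Glycolytic targets are known to respond to HIF too, and of 17 tested 5 rose and 1 fell, with a median of 0.27, beside 8.13% and 5.92% of all genes. The calls were 11 higher and 3 lower without siDUB1 replicate 3 (median 0.17, beside 31.7% and 25.6%). They were 5 and 5 with quantile normalization, beside 1364 and 1190 of the 10994 genes tested. With any 1 siControl library left out they were 3 and 1, beside 54 to 67 higher and 71 to 80 lower of the 10994. ALDOC, an aldolase, rose from 5.16 to 34.1 FPKM (2.49, limma adjusted p = 0.00182), PFKFB4 from 2.38 to 8.08 FPKM (1.42, adjusted p = 0.00206) and the glucose transporter SLC2A1 from 328 to 641 FPKM (0.96, adjusted p = 0.00227), while the transporter SLC2A3 fell from 161 to 38.9 FPKM (-2.05, adjusted p = 0.00313); these 4 passed in all alternatives run.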

How the data were processed

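Total RNA of AGS cells was sequenced on BGISEQ-500 libraries, per the labels' protocols, in 2 groups of 3 set by the transfection named in the labels. The deposited files give FPKM per NCBI Gene ID for 18597 genes with 2 decimals, per the file headers; the authors' aligner, counting tool, annotation and use of strand are not given in the sources used here, and the genome build is GRCh38, per the submitters' processing notes. FPKM is relative to the mapped fragments of a library, so its values hold no depth and no counting interval is given. A RefSeq gene table named 18437 of the IDs and gave coordinates (GRCh38.p14).

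Genes with FPKM of at least 1 in at least 3 of 6 libraries (10994) were fitted as log2(FPKM + 1) with limma 3.58.1 in R 4.3.3 (lmFit, eBayes with trend), without covariates, with Benjamini-Hochberg adjustment over all of them and a threshold of 0.05. The procedure was tested on simulated data, in which no library had a GC-linked shift like that of siDUB1 replicate 3. Ratios within a library used exact permutation tests. Transcript GC content and length came from GENCODE 29 for 10907 tested genes, and the correction used natural splines with 4 degrees of freedom. Promoter windows were those of RefSeq.

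The genes described, the lists around them and their alternatives were chosen with earlier results of these data known. Named were the 10 genes, USP36 and, for each list, the called genes of smallest adjusted p (at most 3 a direction) or, in a list without a call, at most 2 by smallest p. HILPDA, SPAG4, BNIP3L, ANGPTL4, CREBBP, VEGFB, overlapping genes, paralogues, markers and genes named for a call in another fit were named after their values were seen. Of 121 listed genes, FUT11 and NDUFA4L2 were not analysed here; some results are not reported here. Alternatives were median-ratio size factors, quantile normalization, no filter or one of 5 FPKM, pseudocounts of 0.1 and 0.01, eBayes without trend or robust, a replicate block, each library left out, and the GC and length correction with and without siDUB1 replicate 3.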

Additional observations from a re-analysis of the deposited data

How the results depend on the processing

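ANKRD37 and NDRG1 kept their direction and their call in all 18 alternatives run, and CA9 in the 17 in which it was tested. Calls among the 10 genes were 0 to 2 lower, and EGLN1 and ARNT ran from -0.38 to 0.22 and from -0.10 to 0.26, when 1 library was left out. They went to 6 higher and 2 lower without siDUB1 replicate 3, whether with the filter on low values, with the GC and length correction, or with no filter (an alternative chosen after seeing the data). Calls over all genes, 1545 with the settings of the report, were 2554 with quantile normalization, 3481 with the GC and length correction, 6370 with that correction and without siDUB1 replicate 3, 5603 with no filter and without that library, and between 125 and 6299 with 1 library left out. With median-ratio size factors 661 genes were called higher and 729 lower, against 894 and 651, so the higher share went from 57.9% to 47.6%. The replicate block gave 179 calls, and ANKRD37, NDRG1 and CA9 passed under the block too. Deviations of same-numbered libraries from their group means correlated at r = 0.254, -0.491 and -0.227. Since siDUB1 replicate 3 dominates the siDUB1 deviations, these values cannot decide whether the numbers pair the libraries. EGLN1 turned from -0.16 to 0.22 without siDUB1 replicate 3 (0.22 with no filter as well), 0.25 with the correction and 0.34 with both; ARNT turned to -0.07 and -0.10 without siDUB1 replicate 1 or 2; EGLN2 turned to -0.085 with the correction and to -0.078 without siDUB1 replicate 3 as well. The cause was not tested in any of these. Unknown depth limits the low genes most: the siControl values of CA9, ANKRD37 and all values of BNIP3.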
